A study of Mus musculus with 12 samples.

Results

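The effect of adding FGF2 to BMP4 was measured by bulk RNA-seq in cultured adult neural stem cells (NSCs), by setting the 4 BMP/FGF libraries (p-qNSCs, for primed quiescent NSCs) against the 4 BMP libraries (d-qNSCs, for dormant ones), which are 8 of the 12 libraries of the series. The cells came from the subventricular zone (SVZ) of mice 6 to 8 weeks old and were kept in serum-free medium with laminin, EGF and FGF2 before treatment, so every group had a history of both mitogens. BMP libraries were made after 3 days of BMP4, and BMP/FGF libraries after 3 days of BMP4 with FGF2, each factor at 10 ng/ml. The remaining 4 libraries, EGF/FGF, were of proliferating cells with EGF and FGF2 at 10 ng/ml each and give reference levels here, besides entering the estimate of the spread in the main fit. Each condition held 2 libraries of the ANS4 line (strain MF1) and 2 of the BL6 line (strain C57BL/6). Each strain is represented by 1 line, and the labels name no separate animals for the replicates of a line, so p-values measure the spread between these samples. The question was which genes and functions FGF2 moved beyond the interferon genes, with most room given to genes that were lower in BMP/FGF.

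In the SVZ, NSCs with astrocyte-like features divide to transit-amplifying cells and neuroblasts, which migrate to the olfactory bulb and become mainly GABAergic interneurons. BMP4 acts through Smad proteins, induces Id genes and holds cultured NSCs in a non-dividing, astrocyte-like state. FGF2 acts through tyrosine kinase receptors on the Ras-MAPK pathway, which is bounded by its own induced inhibitors such as Sprouty and Dusp proteins, and it is a mitogen for NSCs.

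Libraries held 18069052 to 19451818 estimated counts, and expression is given as counts per 1000000 (CPM) after TMM scaling of the library sizes, where 1 count equalled 0.0515 to 0.0557 CPM and a level of at most 3 counts is taken as the limit of reading. The 9 NSC markers were all present, with a summed level of 10115 to 11360 CPM in BMP and 13035 to 13524 CPM in BMP/FGF. Of 12 microglial markers 7 were in the table, 1 of them (Csf1r) at no more than 3 counts in any library, and their sum was 5.83 to 7.52 CPM in BMP and 9.47 to 11.9 CPM in BMP/FGF. The ependymal sums overlapped (191 to 230 CPM in BMP, 195 to 202 CPM in BMP/FGF, 5 of 6 markers in the table). The BL6 BMP replicates differed from each other most, with a mean chi-square of 12.4 per gene against 2.14 to 4.76 for the other replicate pairs.

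Of 13641 tested genes, 2938 (21.5%) fell and 2622 (19.2%) rose with FGF2 at a false discovery rate (FDR) under 0.05, by edgeR's quasi-likelihood F-test with Benjamini-Hochberg adjustment, two-sided, with 4 libraries of each condition. Changes of more than 1.5 on the log2 scale (2.83-fold) were seen for 128 lower genes (0.938%) and 132 higher genes (0.968%). The 265 genes of an interferon list, 199 of them tested, held 133 called rises, 9 called falls and 43 of the 132 larger rises, which left 89 larger rises and 127 larger falls outside it. Of all tested genes, 18.4% had all 4 BMP/FGF libraries below all 4 BMP libraries. Among the 128 larger falls 114 did, and 125 were below 0 in both lines. These 128 genes were selected for a large fall in the same libraries, so both counts follow largely from the selection. The median level of these 128 genes was 1.86 CPM in BMP, 0.437 CPM in BMP/FGF and 0.189 CPM in EGF/FGF, and 60 of them averaged under 1 CPM over the 8 libraries, so that many of the larger falls were of weakly expressed genes. With limma on the deposited rlog values, which are shrunken for low genes, only 26 lower and 39 higher genes passed the same threshold, and in the BL6 line alone 212 lower genes did.

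**Figure D1:**
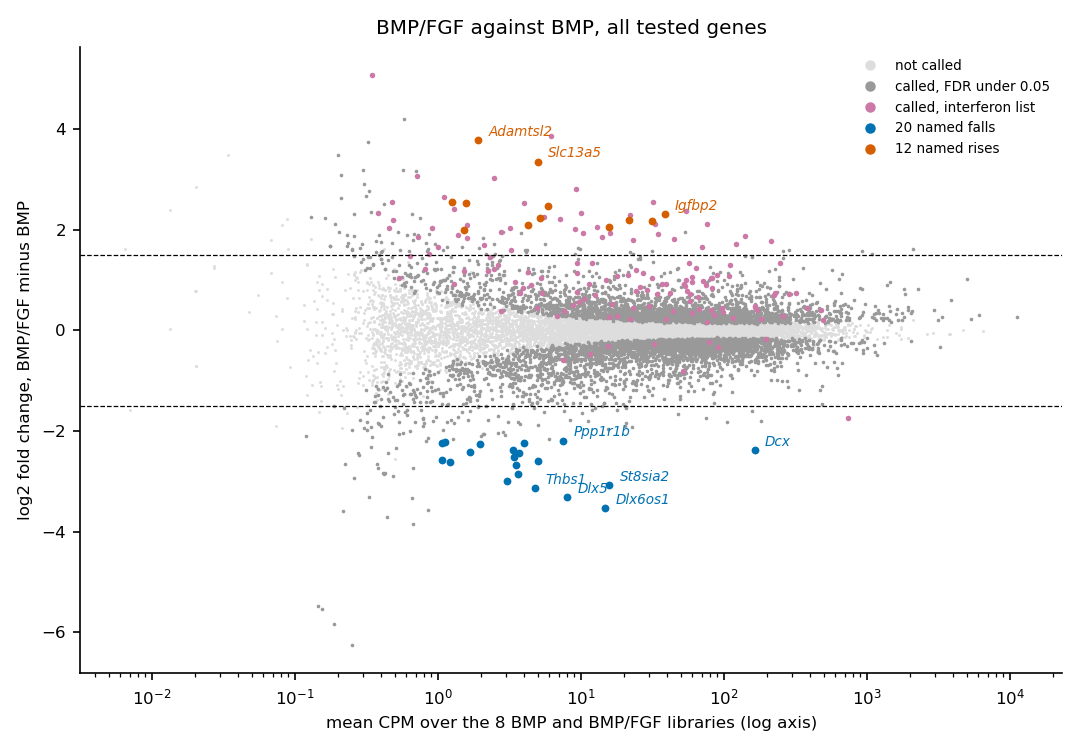
Log2 fold change (BMP/FGF minus BMP, vertical axis) of each tested gene against its mean CPM over the 8 libraries (log axis). The dashed lines mark 1.5 on the log2 scale, 3 genes at 0 CPM are not drawn, and the 20 named falls (blue) lie between −3.53 and −2.19, with Dcx the most abundant of them.

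Genes of GABAergic interneuron fate were lower with FGF2 as a group, and 8 of them passed the fold threshold. Of 30 genes on this list, 24 were tested, 20 were lower, none was higher and 4 did not pass the test, with a median log2 fold change of −0.99 where the median of all tested genes was −0.01. All 4 BMP/FGF libraries were below all 4 BMP libraries for 20 of the 24. In bulk RNA, fewer cells of a type and less RNA per cell cannot be told apart. The list included the antisense RNA Dlx6os1, which is transcribed from the Dlx5/6 locus (chr6:6820189-6871592, GRCm38), and read 13.9, 15.4, 43.2 and 36.2 CPM in BMP and 2.04, 1.5, 2.55 and 2.90 CPM in BMP/FGF, where, as in each such run of 4 values below, ANS4 replicates 1 and 2 come before BL6 replicates 1 and 2. Its log2 fold change was −3.53 ± 0.18 (SE) (edgeR FDR = 4.19e-10), the largest fall among the genes named here, and in EGF/FGF it did not exceed 0.208 CPM. Its neighbour Dlx5 (chr6:6877805-6882085), a homeobox factor of the same lineage, read 8.43, 8.16, 21.8 and 20.5 CPM in BMP and 1.83, 0.910, 1.39 and 1.45 CPM in BMP/FGF (−3.31 on the log2 scale, edgeR FDR = 4.46e-09). BL6 stood above ANS4 in BMP for both genes, while the lines overlapped in Dlx5 once FGF2 was present.

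The other Dlx pair, on chromosome 2, was far more abundant and fell less. Dlx2, a homeobox factor that marks transit-amplifying cells and neuroblasts, read 168, 183, 264 and 337 CPM in BMP and 82.8, 83.2, 69.9 and 69.8 CPM in BMP/FGF (−1.61 ± 0.15 (SE), edgeR FDR = 2.61e-07), and its neighbour Dlx1, of the same family, fell by 1.04 on the log2 scale (edgeR FDR = 2.75e-05). Sp8, a zinc finger factor of olfactory bulb interneurons, went from 3.33, 3.61, 6.75 and 7.98 CPM in BMP to 0.268, 0.536, 0.944 and 0.947 CPM in BMP/FGF (−2.99, edgeR FDR = 1.25e-08). The conditions were apart without overlap for each of the 3 genes, and Sp8 was higher in BL6 than in ANS4 under both. Genes of the mature interneuron phenotype were lower as well. Calb2, which encodes the calcium-binding protein calretinin, read 4.44, 2.72, 8.55 and 10.1 CPM in BMP and 0.591, 0.696, 1.22 and 0.947 CPM in BMP/FGF (−2.85 ± 0.22 (SE), edgeR FDR = 2.36e-08). The GABA-synthesising enzyme gene Gad1 read 13.3, 13.7, 41.2 and 37.9 CPM in BMP and 8.97, 8.62, 8.83 and 9.64 CPM in BMP/FGF (−1.44 ± 0.23 (SE), edgeR FDR = 7.71e-05). In BMP/FGF its 4 libraries lay in a narrow band although BL6 stood far above ANS4 in BMP. Slc32a1, the vesicular GABA transporter, read 0.832, 1.61, 1.96 and 3.06 CPM in BMP and 0.483, 0.428, 0.278 and 0.334 CPM in BMP/FGF (−2.23 ± 0.38 (SE), edgeR FDR = 0.000286), so it was low in every library.

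Neuroblast genes moved with them. On this list 21 of 28 tested genes were lower, 2 were higher and 5 did not pass, with a median of −0.93, and 19 had all BMP/FGF libraries below all BMP libraries. Dcx, the microtubule-binding protein of migrating neuroblasts, read 174, 170.4, 394 and 376 CPM in BMP and 47.5, 47.6, 54.5 and 49.2 CPM in BMP/FGF, a fitted 5.23-fold difference (−2.39 ± 0.16 (SE), edgeR FDR = 7.77e-09). Its EGF/FGF level was 1.15, 1.24, 0.627 and 2.18 CPM, so BMP/FGF lay between the other conditions. The plot of 6 genes over all 12 libraries shows Dcx beside Dlx2, with BL6 above ANS4 in BMP and the lines close together in BMP/FGF. St8sia2, which adds polysialic acid to the cell adhesion molecule NCAM, read 23.7, 21.0, 32.7 and 35.8 CPM in BMP and 3.49, 2.89, 3.28 and 3.51 CPM in BMP/FGF (−3.08 ± 0.13 (SE), edgeR FDR = 4.18e-11). Its carrier Ncam1 was 1 of the 2 genes of the list that rose, from 518, 539, 539 and 549.8 CPM to 618, 612, 629 and 641 CPM (0.22, edgeR FDR = 0.00295). Tubb3, the neuronal beta-tubulin, fell from 122, 130.1, 189 and 216 CPM to 49.0, 49.0, 43.4 and 39.9 CPM (−1.83). The synaptic adhesion gene Nrxn3 went from 16.4, 13.1, 36.8 and 33.7 CPM in BMP to 5.48, 5.36, 6.27 and 7.13 CPM in BMP/FGF (−1.96 ± 0.17 (SE)). Elavl4, a neuronal RNA-binding protein gene, went from 22.6, 20.2, 43.4 and 44.4 CPM to 7.14, 10.1, 8.10 and 9.59 CPM (−1.84 ± 0.17 (SE)). Each of these falls was seen in both lines.

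**Figure D2:**
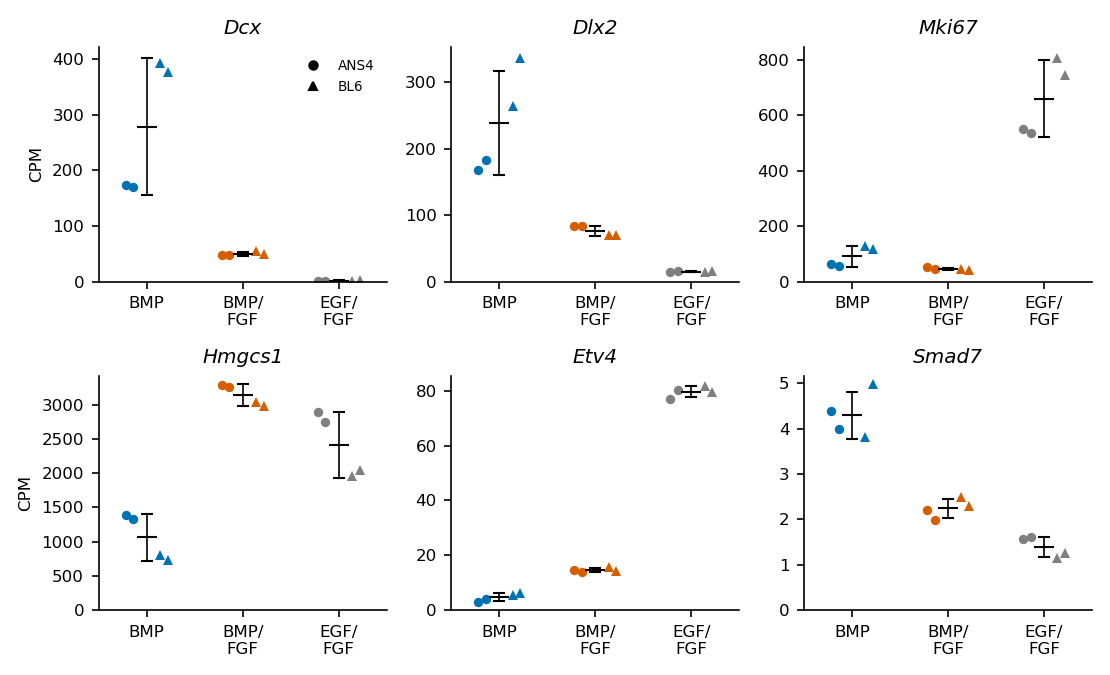
CPM of 6 genes in all 12 libraries, with circles for ANS4, triangles for BL6, and the mean and SD of the 4 libraries of each condition in black. Dcx, Dlx2 and Mki67 are higher in BL6 than in ANS4 in BMP and near level between the lines in BMP/FGF, Hmgcs1 shows the opposite order in BMP, and Etv4 and Smad7 move between BMP and BMP/FGF in both lines.

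Further genes used by young neurons were among the 20 falls named by rule. Srrm4, a splicing factor of neural microexons, read 4.60, 4.44, 7.99 and 7.62 CPM in BMP and 0.752, 1.34, 1.05 and 0.613 CPM in BMP/FGF. The synaptic vesicle calcium sensor Syt1 read 3.05, 2.55, 4.07 and 3.37 CPM in BMP and 0.644, 0.696, 0.611 and 0.724 CPM in BMP/FGF. St18, a zinc finger factor, read 3.94, 4.55, 9.94 and 8.09 CPM in BMP and 1.29, 1.29, 1.44 and 1.39 CPM in BMP/FGF. For all 3 the conditions were apart without overlap, which the rule for naming them required within each line. Their log2 fold changes were −2.67, −2.27 and −2.24, and the EGF/FGF level was at or under 0.366 CPM in every library. The 6 neuronal markers were all in the table, and their sum went from 851 to 1174 CPM in BMP to 794 to 851 CPM in BMP/FGF, most of it Map2, while Rbfox3, which marks mature neurons, stayed at or under 0.207 CPM in every library. The part of other cells in these falls was not tested.

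Among receptors and ligands that guide neurites, falls outnumbered rises. Of 53 tested guidance cues and receptors 24 (45.3%) were lower, 6 (11.3%) were higher and 23 did not pass (median −0.25). Of all tested genes 21.5% were lower and 19.2% higher. Plxna4, a semaphorin receptor, read 6.82, 6.66, 11.4 and 9.69 CPM in BMP and 1.02, 1.45, 1.55 and 1.62 CPM in BMP/FGF (−2.60 ± 0.16 (SE), edgeR FDR = 2.07e-09). The ephrin receptor Epha3 went from 9.15, 11.0, 13.2 and 11.8 CPM to 3.44, 4.18, 4.27 and 4.46 CPM (−1.46), and its relative Epha4 from 20.1, 20.5, 30.2 and 27.6 CPM to 8.16, 9.80, 10.8 and 10.3 CPM (−1.33). Sema3e, a secreted semaphorin, fell from 84.0, 84.3, 95.5 and 82.1 CPM to 30.4, 32.3, 44.4 and 45.9 CPM (−1.20) and fell further in ANS4 than in BL6. Of 35 tested potassium and chloride channels 6 were lower and 7 were higher, shares near those of all tested genes. Glutamate and GABA receptors held more rises than falls, with 4 of 26 (15.4%) lower and 10 (38.5%) higher (median 0.31). Grin3a, an NMDA receptor subunit, fell from 9.60, 9.44, 21.4 and 22.3 CPM to 4.46, 4.18, 5.22 and 5.29 CPM (−1.64), whereas Grm5, a metabotropic glutamate receptor, rose from 95.1, 86.8, 83.5 and 72.3 CPM to 207, 217, 258 and 251 CPM (1.47, edgeR FDR = 2.07e-09). Csmd1, a large membrane protein of neurons and glia, was at 1.66, 1.05, 3.04 and 2.59 CPM in BMP and 0.322, 0.321, 0.333 and 0.334 CPM in BMP/FGF.

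**Figure D3:**
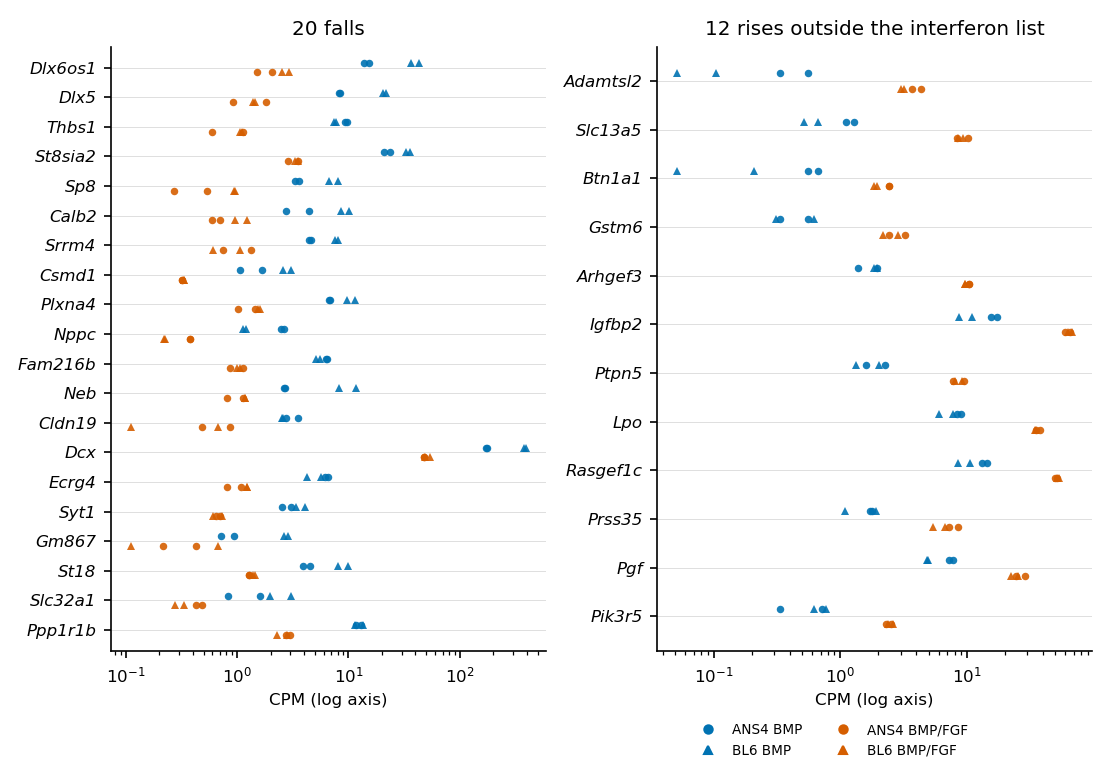
CPM (log axis) of the 20 named falls (left) and 12 named rises (right) in each BMP (blue) and BMP/FGF (orange) library, with circles for ANS4 and triangles for BL6. Within each line the BMP and BMP/FGF libraries are apart for every gene, as the rule for naming them required, and for many falls the BL6 triangles lie to the right in BMP.

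The other falls named by rule were of varied function. Thbs1, a secreted matrix protein made by astrocytes and known to inhibit vessel growth, read 9.71, 9.33, 7.78 and 7.41 CPM in BMP and 1.13, 0.589, 1.11 and 1.06 CPM in BMP/FGF (−3.13 ± 0.20 (SE), edgeR FDR = 4.40e-09), and here ANS4 was the higher line in BMP. Its level in EGF/FGF was 1.36, 1.76, 1.99 and 2.44 CPM, so BMP alone held the highest values. Nppc, which encodes C-type natriuretic peptide, read 2.5, 2.61, 1.13 and 1.19 CPM in BMP and 0.376, 0.375, 0.222 and 0.223 CPM in BMP/FGF (−2.58 ± 0.33 (SE), edgeR FDR = 8.67e-06). Ppp1r1b, the dopamine-regulated phosphatase inhibitor DARPP-32, read 12.9, 11.7, 11.3 and 13.5 CPM in BMP and 2.95, 2.73, 2.83 and 2.28 CPM in BMP/FGF (−2.19 ± 0.13 (SE), edgeR FDR = 1.28e-09). Nppc was higher in ANS4 than in BL6 under both conditions, and the lines overlapped for Ppp1r1b. Fam216b read 6.32, 6.38, 5.56 and 5.08 CPM in BMP and 1.13, 0.857, 1.05 and 1.00 CPM in BMP/FGF (−2.52 ± 0.18 (SE), edgeR FDR = 7.72e-08) and was at 0 counts in all 4 EGF/FGF libraries. It was therefore highest in BMP among the 3 conditions. The tight junction gene Cldn19, the secreted peptide gene Ecrg4, the giant muscle protein gene Neb and the gene model Gm867 fell by 2.41, 2.37, 2.43 and 2.25 on the log2 scale, with Gm867 not passing in ANS4 alone (edgeR FDR = 0.0962). Neb fell further in BL6 (−3.09) than in ANS4 (−1.46).

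Among BMP pathway genes falls outnumbered rises, at the same dose of BMP4. Of 17 tested ligands, receptors and related genes 9 (52.9%) were lower, 1 (5.88%) was higher and 7 did not pass. Of all tested genes 21.5% were lower and 19.2% higher. The gene that was higher, Bmp1, averaged 138 CPM in BMP and 181 CPM in BMP/FGF. The receptor genes Bmpr1a and Bmpr1b did not pass (edgeR FDR = 0.0994 and 0.721), although Bmpr1a fell in ANS4 (−0.37). Bmpr2 passed (−0.25, edgeR FDR = 0.0374), but not in BL6 alone (edgeR FDR = 0.962). Acvr1 (−0.28) and Acvr2b (−0.72) were lower. The endogenous ligand genes Bmp6, Bmp2 and Bmp4 were weakly expressed. Bmp6 read 0.499, 0.777, 0.618 and 0.778 CPM in BMP and 0.215, 0.0536, 0.111 and 0 CPM in BMP/FGF (−2.73, edgeR FDR = 0.000380). Bmp2 read 0.888, 1.78, 0.464 and 0.622 CPM in BMP and 0.376, 0.375, 0.333 and 0.0557 CPM in BMP/FGF (−1.68, edgeR FDR = 0.00434). In BMP/FGF several of these libraries were at or under 3 counts, and Bmp2 did not pass in BL6 alone (edgeR FDR = 0.113). Endogenous Bmp4 was at or under 0.407 CPM on average in either condition, and its call (edgeR FDR = 0.0172) was lost on leaving out any 1 of the 4 BL6 libraries compared (edgeR FDR between 0.0515 and 0.0781).

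Of 21 tested BMP targets and inhibitors 12 (57.1%) were lower, 4 (19.0%) were higher and 5 did not pass (median −0.32). The shares of all tested genes were 21.5% lower and 19.2% higher. The inhibitory Smads, which BMP signalling induces and which then dampen it, were among the falls. Smad6 read 3.55, 2.16, 1.70 and 2.33 CPM in BMP and 0.752, 0.803, 1.11 and 1.00 CPM in BMP/FGF (−1.40 ± 0.26 (SE), edgeR FDR = 0.000348), and Smad7 read 4.38, 4.0, 3.81 and 4.98 CPM in BMP and 2.20, 1.98, 2.5 and 2.28 CPM in BMP/FGF (−0.94 ± 0.16 (SE), edgeR FDR = 0.000180). Smad9, a signal-carrying Smad that BMP also induces, and the secreted BMP antagonist Nog fell by 0.67 and 1.37 on the log2 scale, with Nog not passing in BL6 alone (edgeR FDR = 0.0616). The Id genes, direct BMP targets that hold back neuronal differentiation, did not move as a set. Id2 fell from 214, 222, 186 and 167 CPM to 139, 131, 128 and 128 CPM (−0.58, edgeR FDR = 1.41e-05). Id1 read 29.6, 34.7, 24.5 and 26.0 CPM in BMP and 24.2, 24.3, 18.4 and 24.9 CPM in BMP/FGF (−0.32, edgeR FDR = 0.0129), a call lost without ANS4 BMP replicate 2 (edgeR FDR = 0.0595) or BL6 BMP/FGF replicate 1 (edgeR FDR = 0.0582). Id3 overlapped between the conditions and read 29.4, 38.1, 22.4 and 32.3 CPM in BMP and 32.5, 29.0, 30.5 and 34.2 CPM in BMP/FGF (0.05, edgeR FDR = 0.742). Among the extracellular antagonists, Fst, which encodes follistatin, rose from 9.76, 9.99, 9.27 and 8.81 CPM to 15.5, 17.0, 15.3 and 17.6 CPM (0.79, edgeR FDR = 0.000181), and Bmper, which encodes a BMP-binding secreted protein, rose by 0.59, not passing in ANS4 alone.

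Cell cycle genes were lower, not higher, with FGF2 present. All 28 genes of the mitosis list were lower (median −0.93), with 26 apart without overlap, and 28 of 29 genes of the S phase list were lower (median −0.68), with 25 apart, while none of either list was higher. Mki67, which encodes the proliferation marker KI67, read 63.5, 54.8, 129 and 117 CPM in BMP and 50.6, 43.8, 46.6 and 42.9 CPM in BMP/FGF, against 549, 534, 807 and 746 CPM in EGF/FGF (−0.90 ± 0.15 (SE) between BMP/FGF and BMP, edgeR FDR = 0.000175). In ANS4 the 2 conditions differed by −0.33 and in BL6 by −1.46 on the log2 scale. Ccnb1, the cyclin of mitotic entry, read 35.3, 33.1, 46.1 and 43.3 CPM in BMP and 15.3, 17.2, 15.7 and 14.5 CPM in BMP/FGF (−1.32, edgeR FDR = 6.41e-09), and Cdc20, an activator of the anaphase-promoting complex, fell by 1.44. In S phase genes the falls were smaller. Cdc6, which loads the replicative helicase, read 6.82, 7.77, 6.96 and 7.05 CPM in BMP and 3.11, 2.89, 4.0 and 3.51 CPM in BMP/FGF (−1.08, edgeR FDR = 1.29e-06). The helicase subunit gene Mcm6 read 53.4, 54.1, 64.6 and 60.7 CPM in BMP and 39.0, 33.1, 36.0 and 35.0 CPM in BMP/FGF (−0.70, edgeR FDR = 6.50e-07). Pcna, the polymerase clamp, read 104, 107, 110.2 and 95.8 CPM in BMP and 89.8, 83.1, 87.1 and 87.1 CPM in BMP/FGF (−0.27), so its groups came close without overlap. Mcm6 was named for its promoter after its values were seen.

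The G1 regulators were divided, with more falls than rises. Of 24 tested genes 9 (37.5%) were lower, 3 (12.5%) were higher and 12 did not pass (median −0.17). The shares of all tested genes were 21.5% lower and 19.2% higher. Ccnd2, a D-type cyclin of neural progenitors, fell from 552, 543, 751 and 763 CPM to 279, 278, 292 and 289 CPM (−1.19 ± 0.08 (SE), edgeR FDR = 6.03e-09). Ccnd1, a D-type cyclin known to be induced by MAPK signalling, rose from 63.7, 59.6, 107 and 108 CPM to 133, 129.8, 147 and 148 CPM (0.75 ± 0.12 (SE), edgeR FDR = 8.57e-05), against 3151, 3188, 3137 and 3059 CPM in EGF/FGF. Cdkn1a, the CDK inhibitor p21, read 80.5, 70.4, 62.5 and 77.4 CPM in BMP and 140.2, 142, 141 and 128 CPM in BMP/FGF (0.92, edgeR FDR = 6.93e-08) with changes of 0.90 in ANS4 and 0.94 in BL6. The growth-promoting factor gene Mycn fell by 0.96. Of 16 tested p53 targets 8 (50.0%) were higher and none was lower (1 without BL6 BMP replicate 1). Among those higher was Ccng1, a cyclin-like p53 target, which read 240.4, 236, 176 and 161 CPM in BMP and 382, 395, 426 and 430.1 CPM in BMP/FGF (1.03).

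The promoters of 2 lowered genes are shown because the mitosis and S phase lists moved together. Promoters of RefSeq (GRCm38.p6, 250 bases before to 50 after the start site) were matched for 24 of 28 mitosis genes and 24 of 29 S phase genes and searched on both strands. The cell cycle gene homology region (CHR), spelled TTTGAA, was in 18 of 24 mitosis promoters (75.0%) against 20.2% of the promoters of all 27025 genes and 14% of those of tested genes (10834 matched), and the CCAAT box in 19 of 24 (79.2%) against 41.1% and 43.2%. The E2F spellings TTTCCCGC or TTTGGCGC were in 9 of 24 S phase promoters (37.5%) against 1.8% and 3.42%. In the windows printed, chr7:135716460-135716579 (minus strand, 200 to 81 bases before the Mki67 start) and chr1:128359706-128359825 (minus strand, 120 to 1 bases before the Mcm6 start), capitals mark CHR and CCAAT in Mki67 and the E2F spelling and CCAAT in Mcm6 on either strand, no annotated exon lies in them and the marked motifs do not overlap. These matches are descriptions of letters.
Mki67: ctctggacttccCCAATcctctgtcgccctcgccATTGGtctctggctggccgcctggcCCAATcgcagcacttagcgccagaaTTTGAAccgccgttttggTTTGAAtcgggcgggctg
Mcm6: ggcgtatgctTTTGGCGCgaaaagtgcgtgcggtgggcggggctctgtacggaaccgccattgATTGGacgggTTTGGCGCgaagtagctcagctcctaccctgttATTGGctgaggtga

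MAPK feedback genes, the textbook readout of FGF receptor signalling, were mostly higher. Of 20 tested genes 16 were higher and none was lower (median 0.73), with 11 apart without overlap where 16.7% of all tested genes had every BMP/FGF library above every BMP library. Etv4, an ETS factor induced by FGF signalling, read 3.00, 3.94, 5.62 and 6.17 CPM in BMP and 14.8, 13.7, 15.6 and 14.3 CPM in BMP/FGF (1.64 ± 0.13 (SE), edgeR FDR = 3.80e-08). The ERK phosphatase gene Dusp6 read 11.1, 12.9, 13.3 and 13.9 CPM in BMP and 27.1, 29.6, 33.1 and 36.4 CPM in BMP/FGF (1.30 ± 0.08 (SE), edgeR FDR = 1.28e-09). The Sprouty genes Spry4 and Spry2, inhibitors of receptor tyrosine kinase signalling, rose by 0.97 and 0.80. Both remained below EGF/FGF, where Etv4 read 76.9, 80.3, 81.6 and 79.6 CPM and Dusp6 read 235, 235, 247 and 245 CPM. Among the receptors, Fgfr2 fell from 146, 142, 118 and 112 CPM to 94.4, 102, 99.8 and 98.2 CPM, and the receptor-like gene Fgfrl1, which lacks the kinase part, rose from 134, 143, 99.7 and 111 CPM to 195, 193, 184 and 174 CPM, the 2 calls among 10 tested genes of the FGF list. A second lower gene passed without ANS4 BMP replicate 1, and a second higher gene without ANS4 BMP replicate 2 or ANS4 BMP/FGF replicate 1. Immediate early genes, which growth factors induce within minutes, were mostly not called after 3 days. Of 18 tested 2 were lower and 1 was higher, a count that was 2 without BL6 BMP replicate 2 and 0 without BL6 BMP/FGF replicate 1. Fosb fell from 18.7, 16.4, 17.8 and 20.5 CPM to 5.15, 5.73, 10.3 and 8.86 CPM (−1.31, edgeR FDR = 2.05e-06). Egr1 overlapped between the conditions and read 238, 241, 262 and 314 CPM in BMP and 201, 189, 269 and 283 CPM in BMP/FGF (−0.18, edgeR FDR = 0.0931), although it passed without BL6 BMP replicate 1 (edgeR FDR = 0.0461).

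Sterol synthesis had the largest share of rises (92.0%) among the 30 lists. Of 25 genes, all tested, 23 were higher and none was lower (median 0.94), and 23 were apart without overlap. Hmgcs1, which makes the HMG-CoA of the mevalonate pathway, read 1387, 1325, 801 and 730.1 CPM in BMP and 3285, 3264, 3033 and 2977 CPM in BMP/FGF (1.62 ± 0.11 (SE), edgeR FDR = 4.48e-09). It was lowest in the BL6 BMP libraries, and in BMP/FGF it exceeded the EGF/FGF level of 2889.7, 2746, 1955 and 2046 CPM. The median of the list was below EGF/FGF, by −0.61 on the log2 scale in BMP/FGF and by −1.465 in BMP. Idi1, the isomerase of the same pathway, read 191, 176, 105 and 101 CPM in BMP and 431, 459, 411 and 397 CPM in BMP/FGF (1.61, edgeR FDR = 7.77e-09). Insig1, which retains SREBP when sterols are plentiful, read 246, 276, 172 and 175 CPM in BMP and 508, 519, 480.2 and 514 CPM in BMP/FGF (1.25, edgeR FDR = 1.26e-08). In each of these the lines were further apart in BMP than in BMP/FGF. Of 17 tested fatty acid and citrate genes 13 were higher and 1 was lower (median 0.67). Acss2, which makes acetyl-CoA from acetate, read 156, 175, 97.6 and 106 CPM in BMP and 373, 379, 401 and 385 CPM in BMP/FGF (1.58, edgeR FDR = 5.31e-08). The lower gene was Srebf1, which encodes the SREBP1 factor of this pathway (−0.32, edgeR FDR = 0.00924), not passing in BL6 alone (edgeR FDR = 0.387). Fasn, the fatty acid synthase, read 657, 771, 521 and 606 CPM in BMP and 606, 589, 700.2 and 672 CPM in BMP/FGF and did not pass (0.02, edgeR FDR = 0.912), with −0.26 in ANS4 (edgeR FDR = 0.0188) and 0.28 in BL6 (edgeR FDR = 0.00694).

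The promoter of Hmgcs1 is shown because it was the sterol promoter that held both a sterol element and a CCAAT box. Of 25 sterol genes 17 were matched to RefSeq promoters. A CCAAT box was in 16 of them (94.1%), against 41.1% of all genes and 43.2% of tested genes. The sterol element spelling TCACNCCAC was in 1 (5.88%), Hmgcs1, against 1.44% and 1.41%. It was also in 1 of 24 S phase promoters (4.17%) and 1 of 19 neuroblast promoters (5.26%), so it was not particular to the sterol list. No mitosis, MAPK feedback or interneuron fate promoter held it. The window is chr13:119690191-119690350 (GRCm38.p6, plus strand, 160 to 1 bases before the start), with the sterol element and the CCAAT box, read on the opposite strand, in capitals.
Hmgcs1: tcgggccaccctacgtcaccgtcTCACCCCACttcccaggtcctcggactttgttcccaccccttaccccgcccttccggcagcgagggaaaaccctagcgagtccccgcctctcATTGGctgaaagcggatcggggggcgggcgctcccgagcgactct

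Outside the interferon list, the 2 largest rises among genes averaging at least 1 CPM with no overlap within a line were of a matrix protein and a citrate transporter. Adamtsl2, a secreted protein of microfibrils, read 0.333, 0.555, 0.0515 and 0.104 CPM in BMP and 4.35, 3.70, 3.00 and 3.18 CPM in BMP/FGF (3.79 ± 0.35 (SE), edgeR FDR = 2.77e-07). Slc13a5, which carries citrate into cells, read 1.28, 1.11, 0.515 and 0.674 CPM in BMP and 10.1, 8.35, 9.33 and 8.58 CPM in BMP/FGF (3.36 ± 0.19 (SE), edgeR FDR = 1.13e-09), while its level in EGF/FGF was 6.26, 8.07, 5.96 and 4.88 CPM. In BMP both were lower in BL6 than in ANS4, and Adamtsl2 in BL6 was at or under 3 counts. Igfbp2, a binding protein for insulin-like growth factors, read 15.6, 17.4, 8.66 and 10.9 CPM in BMP and 59.7, 65.1, 63.3 and 68.0 CPM in BMP/FGF (2.31, edgeR FDR = 6.64e-10), and it remained below its EGF/FGF level of 694, 689, 570.2 and 622 CPM. Igfbp3 rose from 188, 188, 158 and 163 CPM to 301, 299.9, 288 and 288 CPM (0.76, edgeR FDR = 1.76e-06). Igfbp4 rose from 11.4, 11.8, 6.03 and 7.26 CPM to 15.7, 16.7, 13.7 and 14.2 CPM (0.74, edgeR FDR = 0.00105). Igfbp5 and Igfbp7 went the opposite way from these 3. The genomic neighbour of Igfbp2, Igfbp5, fell from 569.7, 530.2, 368 and 388 CPM to 197, 204, 198 and 214 CPM (−1.18). Igfbp7 fell from 5.60, 6.99, 8.45 and 7.98 CPM to 2.31, 2.89, 2.78 and 2.67 CPM (−1.44). Of 13 tested genes of the insulin-like growth factor list 6 (46.2%) were lower and 3 (23.1%) were higher. Of all tested genes 21.5% were lower and 19.2% higher. Of the remaining rises named by rule, the peroxidase gene Lpo read 8.93, 8.33, 7.73 and 6.07 CPM in BMP and 37.7, 35.2, 34.4 and 35.0 CPM in BMP/FGF (2.20). The Ras exchange factor gene Rasgef1c read 14.5, 13.3, 8.45 and 10.5 CPM in BMP and 51.5, 49.3, 53.9 and 51.8 CPM in BMP/FGF (2.18). In both genes the conditions were apart within each line, as the rule for naming them required. The guanine nucleotide exchange factor gene Arhgef3 read 1.39, 1.94, 1.85 and 1.97 CPM in BMP and 10.4, 10.4, 9.71 and 9.70 CPM in BMP/FGF (2.48). The tyrosine phosphatase gene Ptpn5, the protease-like gene Prss35, the PI3K regulatory subunit gene Pik3r5, the glutathione transferase gene Gstm6 and the butyrophilin gene Btn1a1 rose by 2.25, 2.10, 1.99, 2.54 and 2.56 on the log2 scale. Gstm6 has close paralogues between which reads can be split.

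Called rises outnumbered called falls among angiogenic and matrix genes, where 19.2% of all tested genes rose and 21.5% fell. Of 14 tested thrombospondins and angiogenic factors 7 (50.0%) were higher and 3 (21.4%) were lower. Pgf, placental growth factor, read 7.21, 7.77, 4.84 and 4.92 CPM in BMP and 29.0, 24.4, 22.4 and 25.4 CPM in BMP/FGF (2.06 ± 0.13 (SE), edgeR FDR = 2.25e-09). Angpt2, a ligand of the Tie2 receptor, read 14.5, 13.6, 18.5 and 15.9 CPM in BMP and 48.1, 43.6, 49.4 and 46.5 CPM in BMP/FGF (1.58). Vegfa, which drives vessel growth, read 11.6, 10.5, 9.63 and 9.90 CPM in BMP and 22.9, 21.0, 21.0 and 19.1 CPM in BMP/FGF (1.01). Flt1, a receptor for Vegfa and Pgf, rose from 4.88, 5.00, 5.41 and 3.94 CPM to 14, 13.2, 15.3 and 16.7 CPM (1.62) and is itself an endothelial marker. Of 6 endothelial markers 4 were in the table, with a sum of 5.55 to 9.33 CPM in BMP and 14.9 to 19.0 CPM in BMP/FGF, a rise carried by Flt1, since Kdr, the other Vegfa receptor, fell from 3.83, 4.11, 3.25 and 1.45 CPM to 1.66, 1.45, 1.83 and 1.78 CPM (−0.88, edgeR FDR = 0.00820) and did not pass in BL6 alone (edgeR FDR = 0.351). Pecam1 stayed at or under 0.444 CPM and Tek at or under 0.111 CPM in these conditions, and the part of such cells in these rises was not tested. Of 28 tested collagens 14 were higher and 5 were lower (median 0.42), and 2 or 3 were lower without ANS4 BMP replicate 1, BL6 BMP replicate 1 or either BL6 BMP/FGF replicate. Col6a2, a beaded filament collagen, read 2.61, 2.39, 1.8 and 1.5 CPM in BMP and 6.01, 6.21, 6.16 and 6.74 CPM in BMP/FGF (1.60). Col9a3, a collagen known from cartilage, read 1.5, 1.28, 0.824 and 1.09 CPM in BMP and 4.72, 4.87, 4.27 and 4.4 CPM in BMP/FGF (1.96). Timp1, an inhibitor of matrix metalloproteases, read 13.9, 14.8, 13.1 and 14.4 CPM in BMP and 34.1, 36.5, 39.6 and 40.7 CPM in BMP/FGF (1.42, edgeR FDR = 1.62e-09). Of 29 tested integrins and laminins 12 (41.4%) were higher and 7 (24.1%) were lower. The median was −0.10, but 0.08 in ANS4 alone and 0.18 in BL6 alone, so no shift of this list as a group was clear. The integrin subunit gene Itga3 fell by 0.87 on the log2 scale. The laminin chain gene Lama3 fell from 5.21, 6.55, 5.98 and 5.24 CPM to 2.04, 2.14, 2.78 and 2.62 CPM. The pericyte marker sums overlapped (24.1 to 36.4 CPM in BMP, 29.2 to 37.5 CPM in BMP/FGF), although the pericyte marker Rgs5 rose from 1.13 to 1.44 CPM to 3.05 to 4.07 CPM (1.48, edgeR FDR = 1.10e-05). Its part in the matrix genes was not tested.

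Genes of astrocytes and radial glia were more often higher than lower. Of 25 tested astrocyte and radial glia genes 14 were higher and 3 were lower (median 0.21). Gfap, the intermediate filament protein of astrocytes and adult NSCs, read 931, 892, 991 and 1102 CPM in BMP and 1973, 1951, 1881 and 1865 CPM in BMP/FGF (0.96, edgeR FDR = 3.45e-06) against 156, 133, 92.5 and 104 CPM in EGF/FGF. Fabp7, a lipid-binding protein of radial glia, read 669, 559, 400.1 and 276 CPM in BMP and 1523, 1460.3, 1298 and 1236 CPM in BMP/FGF (1.58, edgeR FDR = 1.51e-07). In both genes every BMP/FGF library exceeded every BMP library. Hopx, a homeodomain-only protein of adult NSCs, rose from 17.8, 16.6, 12.2 and 8.97 CPM to 40.5, 40.0, 34.0 and 36.5 CPM (1.46), and Apoe, the lipid carrier, rose from 3906, 3754, 2764 and 3039 CPM to 7148, 6754, 6601 and 6414 CPM. Aqp4, the water channel of astrocytes, rose by 0.41 (edgeR FDR = 0.00570), but in ANS4 alone the change of 0.10 did not pass (edgeR FDR = 0.283). Vim, the vimentin gene, did not pass (0.01, edgeR FDR = 0.940). Clu, the secreted chaperone clusterin, fell from 782, 836, 796 and 879 CPM to 461, 436, 438 and 439 CPM, and Prom1, the stem cell surface marker CD133, fell from 51.2, 52.0, 61.1 and 55.4 CPM to 25.6, 24.5, 31.6 and 29.8 CPM (−0.98, edgeR FDR = 1.61e-08). In the oligodendrocyte lineage 8 of 18 tested genes (44.4%) were lower and 2 (11.1%) were higher. In ANS4 alone 3 were lower (median −0.05) and in BL6 alone 12 were (median −0.71). Enpp6, a marker of newly forming oligodendrocytes, fell by 1.42 on the log2 scale. The sum of 5 oligodendrocyte markers went from 154 to 183 CPM in BMP to 255 to 264 CPM in BMP/FGF, with Mog at or under 0.259 CPM in every library, and its part in these changes was not tested.

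**Figure D4:**
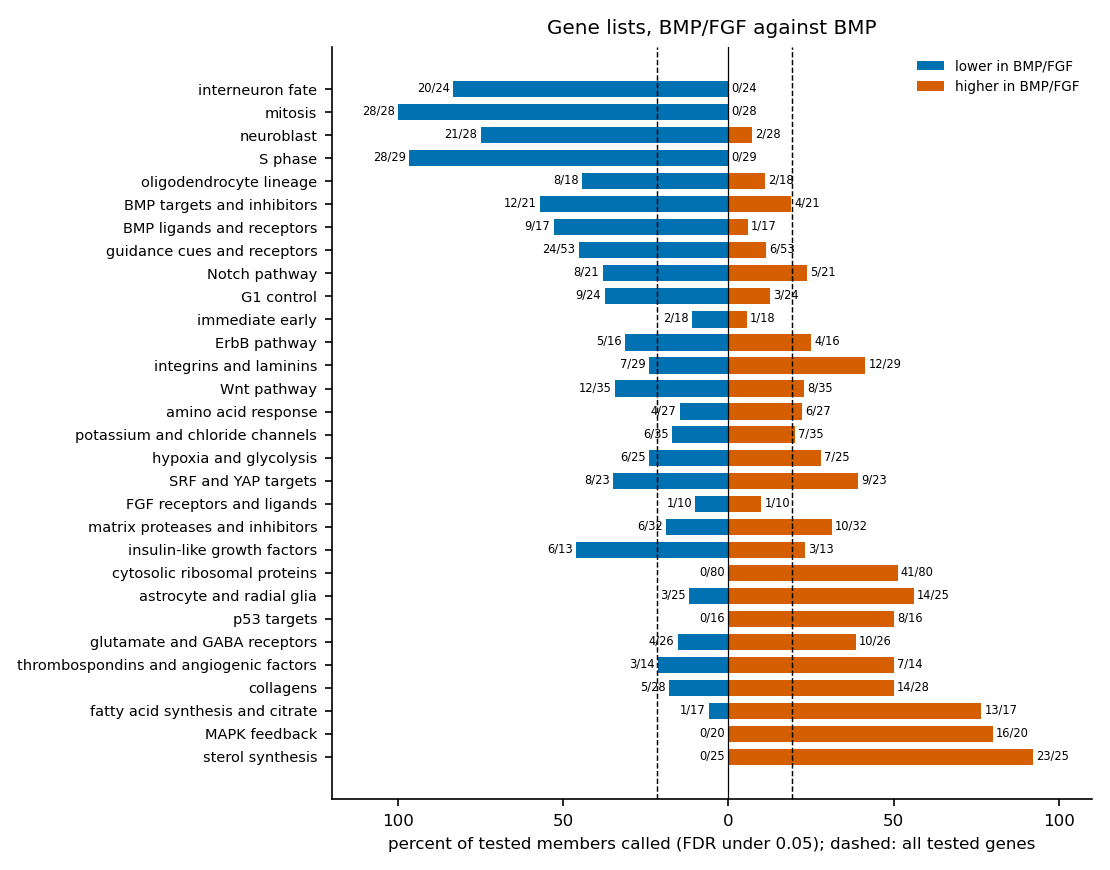
Percent of the tested members of each of 30 gene lists called lower (blue, to the left) or higher (orange, to the right) in BMP/FGF, with counts of called over tested members, ordered by median log2 fold change. The dashed lines mark the shares of all tested genes, 21.5% lower and 19.2% higher.

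In the other signalling groups falls and rises were mixed. In the Notch pathway 8 of 21 tested genes were lower and 5 were higher, and 4 or 5 were lower without BL6 BMP replicate 1 or either BL6 BMP/FGF replicate. The receptor gene Notch2 read 259, 262, 249.7 and 251 CPM in BMP and 140.0, 135, 186 and 189 CPM in BMP/FGF (−0.67, edgeR FDR = 4.17e-06). In the Wnt pathway 12 of 35 were lower and 8 higher, in the ErbB pathway 5 of 16 were lower (3 without BL6 BMP replicate 1 or BL6 BMP/FGF replicate 1) and 4 higher (2 without BL6 BMP/FGF replicate 2), and among SRF and YAP targets 8 of 23 were lower and 9 higher. Hypoxia and glycolysis genes (6 of 25 lower, 7 higher), amino acid response genes (4 of 27 lower, 6 higher) and matrix proteases with their inhibitors (6 of 32 lower, 10 higher) held both falls and rises. So did all tested genes, of which 21.5% were lower and 19.2% higher. The medians of these lists were near that of all tested genes, at 0.03, −0.02 and 0.09 on the log2 scale, so a mix of calls does not set them apart. Of 80 tested cytosolic ribosomal protein genes 41 were higher and none was lower, but the median was 0.20. Reads of ribosomal protein genes can be shared with processed copies.

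The lines differed in how far these groups moved. The difference of the BMP/FGF effect between lines was tested as an interaction, which passed for 1836 genes (13.5%). It passed for 10 of 24 interneuron fate genes and 20 of 28 mitosis genes, all with the larger fall in BL6, and for 20 of 28 neuroblast genes, 19 of them with the lower value in BL6. It passed for 19 of 25 sterol genes and 13 of 17 fatty acid and citrate genes, all with the higher value in BL6, and for 4 of 20 MAPK feedback genes. Among the 128 larger falls 21 passed, 18 of them with the larger fall in BL6. Median changes in ANS4 alone kept the direction of the comparison as a whole, at −0.56 for interneuron fate, −0.57 for mitosis, 0.64 for sterol synthesis and 0.75 for MAPK feedback. Counts were smaller in ANS4 alone for several lists, with 13 interneuron fate genes, 5 Notch pathway genes and 3 collagens lower, and 5 glutamate and GABA receptors, 4 Wnt pathway genes and 26 ribosomal protein genes higher.

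The lines stood further apart in BMP than in BMP/FGF for these groups. In the BMP libraries all 24 interneuron fate genes and all 28 mitosis genes had the higher mean in BL6, and all 25 sterol genes had the lower mean in BL6, with median differences between lines of 0.56, 0.49 and −0.55 on the log2(CPM + 0.5) scale. In the BMP/FGF libraries the same counts of genes higher in BL6 were 11 of 24, 8 of 28 and 6 of 25, and the medians were −0.02, −0.08 and −0.08. Over all tested genes the median absolute difference between lines was 0.16 in BMP and 0.10 in BMP/FGF. These are descriptions of means of 2 libraries and were given no test of their own. The BL6 BMP pair, on which they rest in part, was the replicate pair that differed most, and its part in the interaction was not tested.

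**Figure D5:**
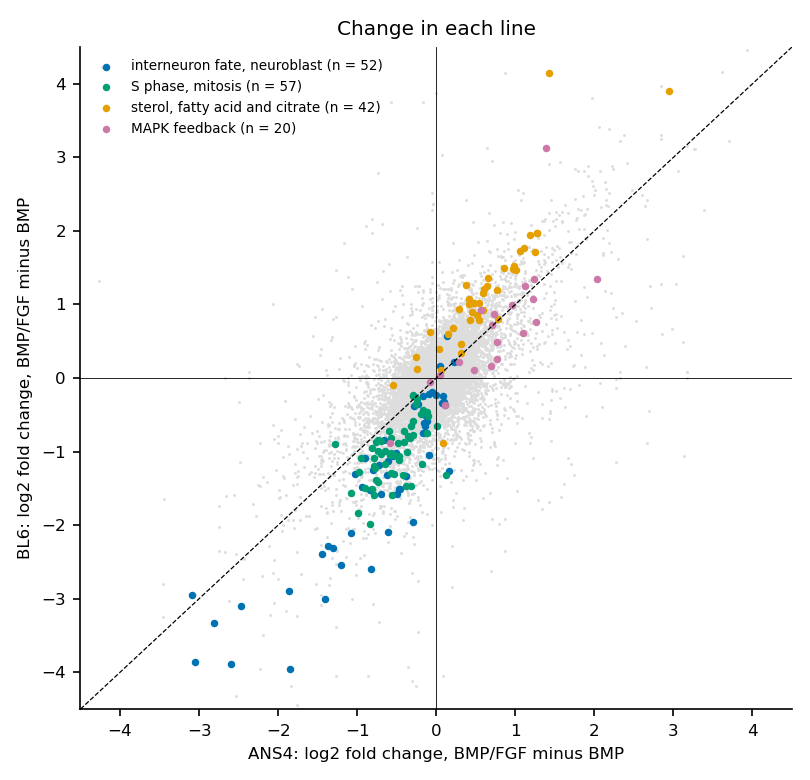
Log2 fold change (BMP/FGF minus BMP) in BL6 (vertical axis) against ANS4 (horizontal axis) for each tested gene, with 4 sets of lists in colour and equality dashed. Falls of neuronal and cell cycle genes lie mostly below the dashed line and rises of lipid genes mostly above it, that is, further from 0 in BL6, and 19 genes lie outside the axes of 4.5.

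Strand is not stated for the libraries. Of the genes named here, Acss2, Bmp6, Ccnd1, Ccnd2, Cdc20, Col9a3, Csf1r, Gm867, Igfbp7, Ncam1, Ppp1r1b, Slc13a5, Srebf1 and Srrm4 share exonic sequence with a gene on the opposite strand, so their reads cannot be separated fully from those of the partner.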

How the data were processed

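The authors trimmed the reads and made estimated counts per gene with kallisto 0.44.0 (Trim Galore 0.5.0 and DESeq2 1.27.32 are also named in the submitters' processing notes, with the mm10 genome). The deposited table of estimated counts, whose values were already whole numbers, was used for every result. The second deposited table, whose values are on a log2 scale (rlog, with values below 0), served only as an alternative. Of 17365 genes, 13641 passed filterByExpr over the 6 line-by-condition groups. The main test was edgeR 4.0.16's quasi-likelihood F-test (TMM, all 12 libraries, condition and cell line as terms), two-sided, with Benjamini-Hochberg adjustment over all tested genes, and the interaction was tested in a fit with 6 groups. A gene was called at FDR under 0.05. The genes and lists were chosen with earlier results of these data known.

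Genes were named by rule from the 20 largest falls and 12 largest rises outside the interferon list with a mean of at least 1 CPM and no overlap of the conditions within either line, and from the anchors and up to 4 called genes in each direction of each list. Alternatives used limma 3.58.1 on rlog, DESeq2 1.42.0, other scalings and filters, contrasts within a single line (from the 6-group fit) and fits lacking 1 library (R 4.3.3, Python 3.11.15), and the filter over the 3 conditions was added after seeing the data. Same-numbered libraries of a line did not deviate together between BMP and BMP/FGF (r = −0.0668 in ANS4 and −0.0202 in BL6 over 13641 genes), so replicate numbers were not used as pairs. Gene positions came from GENCODE on GRCm38 matched by Ensembl ID, and 74 rows share an Ensembl ID with another. Strand handling of the counts is not given in the sources used here. Some members of the lists are counted but not reported by name here.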

Additional observations from a re-analysis of the deposited data

Results flagged for a closer look

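Of 208 groups of 4 libraries examined, 8 had 1 library apart from the other 3 by Dixon's ratio. The groups were 104 of the named genes in each condition compared, and chance alone is expected to give about 1 in 20. In BMP, Sema3e was high in BL6 replicate 1, at 95.5 CPM. In BMP/FGF, the ANS4 replicate 2 library was low for Thbs1 (0.589 CPM) and Neb (0.803 CPM), and the ANS4 replicate 1 library was high for Bmper (49.2 CPM) and Clu (461 CPM). The BL6 BMP/FGF replicate 2 library was low for Bmp2 (0.0557 CPM) and Cdkn1a (128 CPM), and replicate 1 was low for Id1 (18.4 CPM).

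For 37 of these 104 genes the change with FGF2 differed between the lines by the interaction test (edgeR, FDR under 0.05 over all tested genes). The difference is given here as the BL6 log2 fold change minus the ANS4 log2 fold change. Among interneuron and neuroblast genes the difference was −1.30 for Dlx5, −1.08 for Dlx1, −1.02 for Dlx2, −1.48 for Gad1, −1.04 for Dcx, −0.92 for Tubb3, −0.95 for Nrxn3 and −1.0 for Elavl4, so each fell further in BL6. Grin3a (−0.92) and Neb (−1.63) did so too, and Sema3e (0.45) fell further in ANS4. Among cell cycle genes it was −1.14 for Mki67, −0.49 for Ccnb1, −0.84 for Cdc20 and −0.41 for Ccnd2, all larger falls in BL6, and −0.63 for Ccnd1, which rose less in BL6.

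Among FGF and immediate early genes it was −0.69 for Etv4, which rose further in ANS4, 0.34 for Fgfr2 and 0.68 for Fosb, which fell further in ANS4. Among lipid genes it was 0.70 for Hmgcs1, 0.69 for Idi1, 0.54 for Insig1, 0.76 for Acss2, 0.45 for Srebf1 and 0.54 for Fasn, with Fasn lower in ANS4 and higher in BL6. Among glial genes it was 0.63 for Fabp7, 0.51 for Hopx, 0.30 for Apoe and 0.59 for Aqp4, all larger rises in BL6. The remaining differences were 0.83 for Igfbp2, 0.58 for Igfbp4, 0.62 for Rasgef1c, 0.49 for Grm5, 0.64 for Ccng1 and 0.76 for Bmper, which rose further in BL6, and 0.58 for Igfbp5 and 0.51 for Notch2, which fell further in ANS4.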

How the results depend on the processing

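Counts of all called genes stayed within 1.5 times under every alternative, and counts past the fold threshold did so except where named here. With limma on rlog, 26 genes were lower and 39 higher past the threshold (25 and 15 outside the interferon list), a scale that shrinks low genes by construction. In BL6 alone 212 genes were lower past it (211 outside the interferon list), and in ANS4 alone 13 interneuron fate genes were lower, each a contrast of 2 against 2 libraries in the 6-group fit. Leaving out 1 library gave 2349 to 2864 lower and 2249 to 2538 higher genes, with 115 to 146 and 124 to 136 past the threshold (114 to 145 and 81 to 91 outside the interferon list). It gave 18 to 20 interneuron fate, 18 to 22 neuroblast, 10 to 11 BMP target, 25 to 29 S phase and 26 to 28 mitosis genes lower, and 14 to 15 MAPK feedback and 23 to 24 sterol genes higher. With the replicate block, which the numbers do not support as a pairing, 2694 genes were lower and 2364 higher, with 128 and 130 past the threshold. Of the 104 genes examined, 93 kept their call under every alternative, and their direction where they were called. The 1 reversal that involved a call was Fasn, at −0.26 in ANS4 alone. Genes not called could change sign. On leaving out 1 library, Id3 ranged from −0.05 to 0.15 and Vim from −0.04 to 0.06. Bmp4 was not called by DESeq2 (adjusted p = 0.0517), and Aqp4 was not called without the line term (edgeR FDR = 0.0779). Interaction counts ranged from 1345 with 8 libraries to 1925 with library size scaling. Depth limits the larger falls, 60 of 128 of which averaged under 1 CPM.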
